A study of Mus musculus with 6 samples.

Results

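The keratin genes were described in tongues of mouse embryos at embryonic day 14.5, 3 mutant and 3 control, each measured on its own Affymetrix array. All probe sets whose single gene symbol is Krt followed by digits alone were taken, 55 probe sets of 44 genes, and each gene was read through its brightest probe set. They are 44 of the 18193 genes that the arrays name by 1 symbol. Of the 44, 29 lay above the value under which the dimmest 25% of genes fall (5.17 on the log2 scale), and these 29 are among the 13645 genes tested. The mutants had the genotype Tgfbr2 fl/fl with Wnt1-Cre, and the controls had Tgfbr2 fl/fl without Cre, so both groups carried the floxed alleles, in the strain C57BL/6J. The titles call the controls wildtype, and the labels give the sex as not determined. Wnt1-Cre acts in the neural crest, which supplies connective tissue of the tongue; the surface epithelium, where keratins are made, is not a neural crest tissue. Some labels name the material as tongue and others as mesenchyme of the tongue, and nothing in them says whether the embryos came from separate litters, so p-values measure the spread between these arrays.

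Keratins form the intermediate filaments of epithelial cells. Each filament is built from pairs of a type I and a type II keratin, and the pair in use reports the state of the cell: Krt5 with Krt14 in the basal layer of stratified epithelium, Krt8 with Krt18 in simple and early embryonic epithelium, Krt4 with Krt13 in the upper layers of oral mucosa, Krt1 with Krt10 in the upper layers of epidermis, and Krt6a with Krt16 or Krt17 in epithelium under stress, in wounds and in the embryonic surface layer. In the mouse the type I genes lie side by side on chromosome 11 and the type II genes on chromosome 15, with the type I gene Krt18 beside its partner Krt8 on chromosome 15. By this rule 23 of the 44 genes are type I, 13 of them tested, and 21 are type II, 16 of them tested.

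The region around the transcription start is shown for 3 keratins that carry the basal and simple programmes, to put the genes in view before their values. Krt5 was named by rule as a basal keratin, and Krt8 and Krt18, the simple pair, were chosen after their values were seen. Each window holds 250 bases before the start and 50 from the start on, from RefSeq on GRCm38.p6. Capitals mark matches, on either strand, to TATAAA (the TATA box), TGANTCA (the AP-1 motif), GCCNNNGGC (the AP-2 motif) or CATGNC (a core of p63 sites); matches on both strands overlap where a run of capitals is longer than its motif.
Krt5, chr15:101712856-101713155, minus strand: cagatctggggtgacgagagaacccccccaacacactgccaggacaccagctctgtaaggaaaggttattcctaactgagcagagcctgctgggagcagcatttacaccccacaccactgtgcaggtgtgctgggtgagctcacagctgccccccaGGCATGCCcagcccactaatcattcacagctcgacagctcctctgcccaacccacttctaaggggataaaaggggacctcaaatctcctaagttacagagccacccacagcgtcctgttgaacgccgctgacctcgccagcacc
Krt8, chr15:102004293-102004592, minus strand: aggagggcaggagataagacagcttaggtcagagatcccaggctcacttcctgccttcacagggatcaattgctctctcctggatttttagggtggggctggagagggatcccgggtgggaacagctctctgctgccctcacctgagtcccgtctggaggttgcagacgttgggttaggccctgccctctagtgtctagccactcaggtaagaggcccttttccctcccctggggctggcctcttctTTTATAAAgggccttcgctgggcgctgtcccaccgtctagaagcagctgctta
Krt18, chr15:102027966-102028265, plus strand: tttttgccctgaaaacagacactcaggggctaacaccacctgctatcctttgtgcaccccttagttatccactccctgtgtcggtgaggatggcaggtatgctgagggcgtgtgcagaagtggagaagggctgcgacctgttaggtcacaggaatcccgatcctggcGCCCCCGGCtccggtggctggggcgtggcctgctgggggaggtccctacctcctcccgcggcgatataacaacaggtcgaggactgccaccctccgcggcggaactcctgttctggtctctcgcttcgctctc
The Krt5 window held the CATGNC letters on both strands at its base 157 and base 159, and none of the other 3 motifs. The Krt8 window held TATAAA on both strands at base 248 and base 250, beside the annotated start, and the Krt18 window held the AP-2 letters at base 168. Of the 44 keratins, 31 had such a window in the RefSeq table, and for 24 the window started at the outer end of the gene. Among these 24, TATAAA was in the windows of 15, against 13.6% of all 32851 windows. TGANTCA was in 1 (7.81% of all windows), GCCNNNGGC in 4 (16.6%) and CATGNC in 5 (36.1%). The shorter letters CACCC, bound by KLF and Sp1 factors, were in 21 (57.5%), and CAGAC, the core of Smad boxes, was in 16 (49.6%). The keratin counts are of genes, through windows at the outer end of the gene. The shares of all windows count each window, also those that start inside a gene, so the sets are not alike. These matches describe the letters and are not binding sites. The gene most changed below, Krt17, and the basal keratin Krt15 are named without a window.

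Krt17 was the 1 keratin that passed the threshold in the main fit. Krt17 read 9.04, 8.94 and 8.80 in mutant arrays 1 to 3 and 6.55, 7.41 and 7.34 in control arrays 1 to 3, so that the mutants lay within a narrow band and every one of them exceeded every control. The mean was 8.93 ± 0.12 in mutants and 7.10 ± 0.47 in controls (SD, n = 3 each). Krt17, a type I keratin of the embryonic surface layer, hair follicles and healing epithelium, rose by 1.83 on the log2 scale, a 3.55-fold increase (standard error 0.22, 95% confidence interval 1.31 to 2.35, limma adjusted p = 0.012). It was the 1 keratin called among 29 tested, or 3.45%, where 2.14% of all 13645 genes were called. The lowest adjusted p among the other 28 was 0.0595. The Krt17 difference was 1.77 without mutant array 1, which stood apart from the rest (correlation over genes with the other arrays 0.966 to 0.978), and 1.56 without control array 1, the lowest of the controls. The call was lost, with larger or nearly equal differences, without mutant array 2 (1.82, adjusted p = 0.0581), control array 2 (1.98, 0.0555) or control array 3 (1.95, 0.0545). A further, dim Krt17 probe set lay between 3.49 and 3.75 on all arrays, and the mean of both probe sets gave 0.93 (adjusted p = 0.0145).

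**Figure D1:**
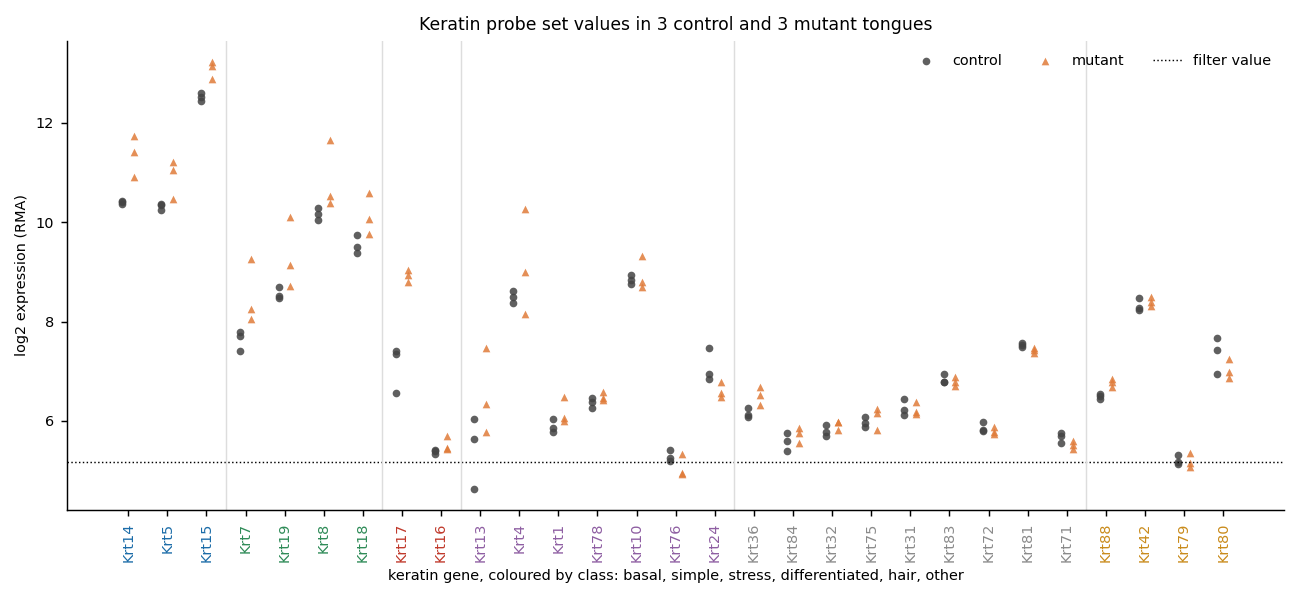
Log2 expression (vertical axis) of the 29 keratins above the filter value, each with 3 control arrays (circles) and 3 mutant arrays (triangles); gene names are coloured by class and the dotted line is the filter value of 5.17. The 3 mutant values of Krt17 lie between 8.80 and 9.04, above all 3 control values, which reach 7.41.

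The type II partner of Krt17 likewise had every mutant above every control. Krt6a, induced in wounds and present in the embryonic surface layer, has a lettered name and so falls outside the 44. For Krt6a the mutant arrays gave 10.50, 10.51 and 10.49 and the control arrays 8.45, 9.59 and 9.40, giving a difference of 1.36 on the log2 scale (SE 0.27, limma adjusted p = 0.0555). The mutants lay close together and above all controls, and control array 1 was the lowest, as it was for Krt17. Its other probe sets differed by 1.08 and 0.92. Krt6a missed the threshold when read through its brightest probe set. It passed when its probe sets were averaged (1.12, adjusted p = 0.0382), with array quality weights (1.13, 0.0359), with the title number of the array as a replicate block (0.0274) and without control array 1 (1.01, 0.0250). The other stress keratin, Krt16, which also pairs with Krt6 proteins, was dim: for Krt16 the mutant arrays gave 5.69, 5.47 and 5.44 and the control arrays 5.34, 5.39 and 5.41, giving a difference of 0.15 on the log2 scale (SE 0.10, limma adjusted p = 0.475). The groups of Krt16 did not overlap, but its confidence interval ran from -0.08 to 0.38. Of the other 3 lettered keratins, Krt6b and Krt33a lay under the filter value, and Krt33b, a hair keratin, differed by 0.16 (adjusted p = 0.372).

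The 3 basal keratins had higher values in every mutant than in any control, without passing the threshold. Krt14 read 11.73, 11.40 and 10.90 in mutant arrays 1 to 3 and 10.41, 10.43 and 10.37 in control arrays 1 to 3, giving a difference of 0.94 on the log2 scale (SE 0.19, limma adjusted p = 0.0605). The controls lay close together and the mutants spread from 10.90 to 11.73. Krt14 encodes the main type I keratin of basal cells; its second bright probe set differed by 0.99, and a dim one by 0.28. Its call changed with the fit: the adjusted p was 0.0315 with the replicate block, 0.0360 without mutant array 1 (difference 0.75) and 0.0204 without mutant array 3 (1.16). Krt14 also passed with array quality weights. Control arrays 1 to 3 gave 12.44, 12.52 and 12.59 for Krt15, and mutant arrays 1 to 3 gave 13.22, 13.15 and 12.87, giving a difference of 0.56 on the log2 scale (SE 0.12, limma adjusted p = 0.0595). Krt15, a type I keratin of basal and progenitor cells, passed without mutant array 1 (0.49, adjusted p = 0.0484) and without mutant array 3 (0.67, 0.0373). With all arrays kept, it also passed with the mean of probe sets, with trend and robust fitting and with array quality weights. The Krt5 values were 11.22, 11.05 and 10.47 in the mutants and 10.25, 10.36 and 10.34 in the controls, giving a difference of 0.60 on the log2 scale (SE 0.19, limma adjusted p = 0.17). Krt5, the type II partner of both, passed only without mutant array 3 (0.82, adjusted p = 0.0284) among the fits run. In all 3 genes mutant array 3 was the lowest of the mutants and mutant array 1 the highest.

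The 4 tested simple keratins were likewise higher in every mutant than in any control, and none passed. For Krt8 the mutant arrays gave 11.66, 10.39 and 10.53 and the control arrays 10.28, 10.05 and 10.17, giving a difference of 0.69 on the log2 scale (SE 0.31, limma adjusted p = 0.318). The Krt18 values were 10.58, 10.07 and 9.75 in the mutants and 9.75, 9.38 and 9.50 in the controls, giving a difference of 0.59 on the log2 scale (SE 0.21, limma adjusted p = 0.219). Both encode the first keratins of the embryo, the groups of Krt18 were apart by less than the second decimal shows, and mutant array 1 was the highest in both. Krt19 read 10.11, 9.13 and 8.72 in mutant arrays 1 to 3 and 8.70, 8.47 and 8.51 in control arrays 1 to 3, giving a difference of 0.76 on the log2 scale (SE 0.32, limma adjusted p = 0.286). Krt19 is a small type I keratin of simple epithelia and taste buds. Control arrays 1 to 3 gave 7.79, 7.41 and 7.71 for Krt7, and mutant arrays 1 to 3 gave 9.26, 8.26 and 8.05, giving a difference of 0.88 on the log2 scale (SE 0.30, limma adjusted p = 0.202). Krt7 is a type II keratin of ducts and glands, and without mutant array 1 the differences of Krt7, Krt8, Krt18 and Krt19 were 0.51, 0.29, 0.37 and 0.37. Krt20, also a simple keratin, lay under the filter value on every array.

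**Figure D2:**
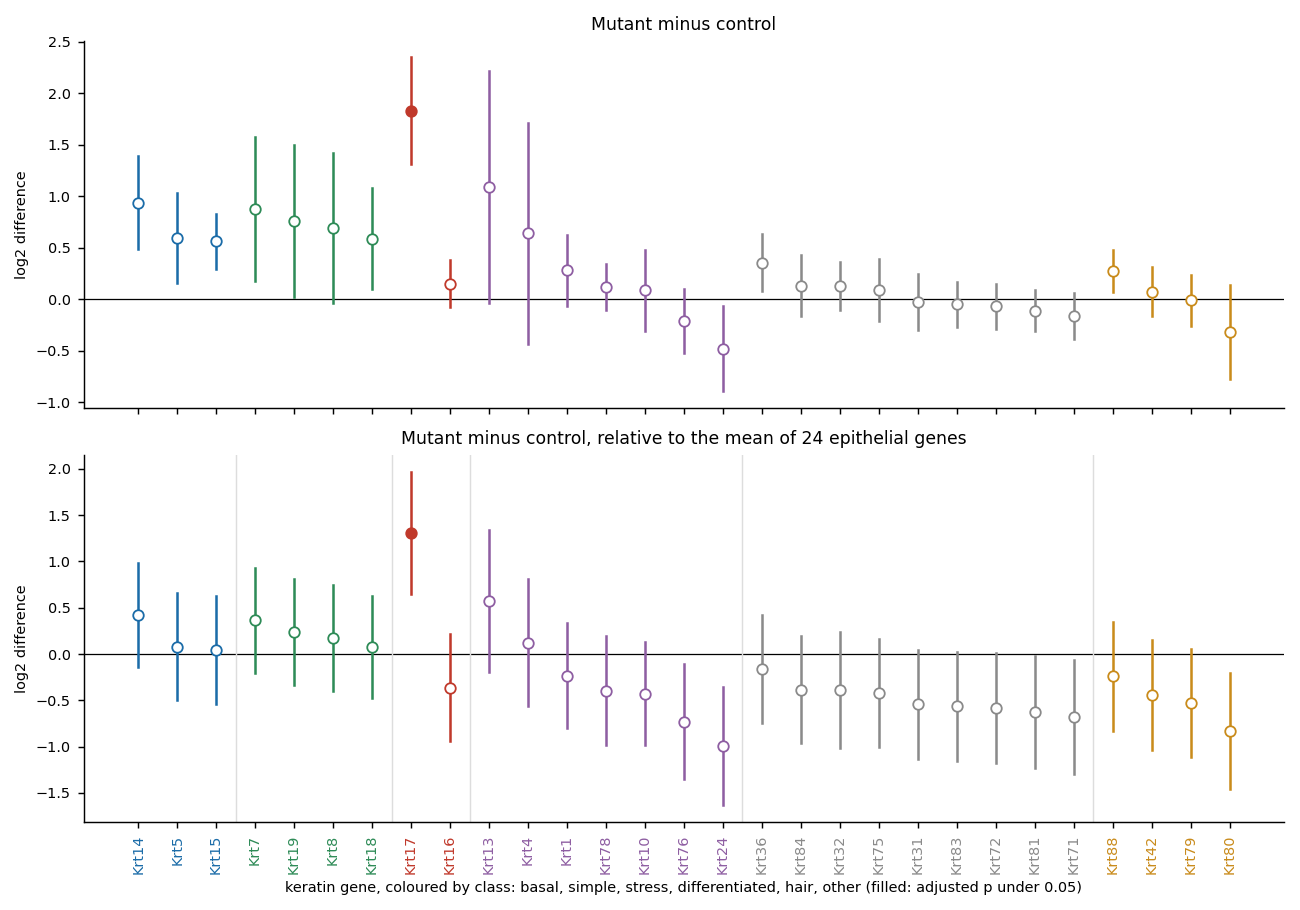
Log2 difference of mutants minus controls for the 29 tested keratins (upper panel) and the same after the mean of 24 epithelial genes was subtracted from each array (lower panel), with 95% confidence intervals as vertical lines; filled points passed an adjusted p under 0.05. Krt17 is the filled point in both panels, at 1.83 and 1.31.

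Over all 29 tested keratins the groups were fully separated upwards in 11 (37.9%) and downwards in 2 (6.90%), against 13.6% and 11.5% of all tested genes. The 11 were the 3 basal, the 4 simple and the 2 tested stress keratins, with Krt36 and Krt88. An unadjusted limma p under 0.05 was reached by 10 of the 29 (34.5%), against 16.9% of all genes. The median log2 difference was 0.13 over the 29, with 20 positive and 9 negative, against 0.02 over all tested genes. By class the median was 0.60 for the basal, 0.73 for the simple, 0.12 for the 7 differentiated and -0.03 for the 9 hair keratins. The 15 keratins under the filter, 9 of them hair keratins, lay between 3.32 and 5.23 on all arrays and differed by -0.12 to 0.23. At the filter value, Krt76 and Krt79 were just inside with means of 5.18 and 5.21 and Krt77 just outside with 4.94.

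No keratin of the upper layers passed the threshold. Krt13 read 7.46, 5.78 and 6.34 in mutant arrays 1 to 3 and 4.64, 6.04 and 5.64 in control arrays 1 to 3, giving a difference of 1.09 on the log2 scale (SE 0.48, limma adjusted p = 0.313). Control arrays 1 to 3 gave 8.37, 8.50 and 8.61 for Krt4, and mutant arrays 1 to 3 gave 10.26, 8.15 and 9.00, giving a difference of 0.64 on the log2 scale (SE 0.46, limma adjusted p = 0.519). These are the pair of mature oral mucosa: mutant array 1 was far above the rest in both, mutant array 2 lay below all controls for Krt4, and the groups overlapped in both. Single arrays moved both values: without mutant array 1 Krt4 differed by 0.08 and Krt13 by 0.62, without mutant array 2 by 1.13 and 1.46, and without control array 1 Krt13 differed by 0.69. The other Krt13 probe sets, with means of 4.43 and 4.18 under the filter value, differed by 0.26 and 0.21. The other Krt4 probe set differed by 0.34. The Krt1 values were 6.49, 6.05 and 6.00 in the mutants and 5.86, 5.79 and 6.03 in the controls, and Krt1, the type II keratin of upper epidermis, differed by 0.28 (adjusted p = 0.385). For Krt10 the mutant arrays gave 9.32, 8.69 and 8.79 and the control arrays 8.95, 8.76 and 8.83, and its difference was 0.09 (0.827). The 2 epidermal partners thus overlapped between the groups. Control arrays 1 to 3 gave 7.48, 6.95 and 6.84 for Krt24, and mutant arrays 1 to 3 gave 6.49, 6.57 and 6.78, giving a difference of -0.48 on the log2 scale (SE 0.18, limma adjusted p = 0.232). It had the lowest difference of the family, with all mutants under all controls, and it did not pass. Krt78 read 6.59, 6.46 and 6.42 in mutant arrays 1 to 3 and 6.27, 6.38 and 6.46 in control arrays 1 to 3, and Krt76 values were 4.96, 5.34 and 4.94 in the mutants and 5.42, 5.26 and 5.19 in the controls. The 95% confidence intervals of Krt78 (-0.10 to 0.34) and Krt76, a keratin of the palate (-0.52 to 0.10), both held 0.

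Hair keratins, some of which also build the filiform papillae of the tongue, gave no call among the 9 tested. For Krt36 the mutant arrays gave 6.68, 6.53 and 6.32 and the control arrays 6.07, 6.11 and 6.26, giving a difference of 0.36 on the log2 scale (SE 0.12, limma adjusted p = 0.191). Krt36 is a type I keratin of these papillae, and its groups did not overlap. The Krt84 values were 5.86, 5.55 and 5.75 in the mutants and 5.76, 5.40 and 5.59 in the controls, so its type II partner in the papillae overlapped between the groups, with a difference of 0.13 (0.635). Krt31 read 6.37, 6.15 and 6.17 in mutant arrays 1 to 3 and 6.12, 6.22 and 6.44 in control arrays 1 to 3. Control arrays 1 to 3 gave 5.69, 5.92 and 5.77 for Krt32, and mutant arrays 1 to 3 gave 5.81, 5.97 and 5.98. Krt31 and Krt32, type I keratins of the hair shaft, differed by -0.03 and 0.13. The Krt81 values were 7.36, 7.43 and 7.47 in the mutants and 7.58, 7.49 and 7.52 in the controls. For Krt83 the mutant arrays gave 6.88, 6.79 and 6.71 and the control arrays 6.79, 6.95 and 6.79. Krt81 and Krt83, type II keratins of the shaft, differed by -0.11 and -0.05; the Krt81 mutants all lay just under the controls. Control arrays 1 to 3 gave 5.70, 5.55 and 5.76 for Krt71, and mutant arrays 1 to 3 gave 5.44, 5.51 and 5.59. Krt72 read 5.79, 5.87 and 5.73 in mutant arrays 1 to 3 and 5.97, 5.79 and 5.83 in control arrays 1 to 3. Krt71 and Krt72 build the inner root sheath, and they differed by -0.16 and -0.07. The Krt75 values were 6.16, 6.23 and 5.82 in the mutants and 6.08, 5.96 and 5.89 in the controls, a difference of 0.09 for this keratin of the companion layer of the follicle. Standard errors of the 9 were between 0.08 and 0.13, so the confidence intervals of all but Krt36 held 0, and the adjusted p of the 9 was at least 0.191.

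Of the remaining 4, Krt80 read 7.25, 6.86 and 6.99 in mutant arrays 1 to 3 and 6.95, 7.68 and 7.42 in control arrays 1 to 3, giving a difference of -0.32 on the log2 scale (SE 0.19, limma adjusted p = 0.455); the groups overlapped. For Krt88 the mutant arrays gave 6.85, 6.77 and 6.69 and the control arrays 6.49, 6.45 and 6.54, giving a difference of 0.28 on the log2 scale (SE 0.09, limma adjusted p = 0.174), with groups that did not overlap. The Krt42 values were 8.48, 8.40 and 8.31 in the mutants and 8.22, 8.47 and 8.27 in the controls, and Krt79 read 5.36, 5.16 and 5.08 in mutant arrays 1 to 3 and 5.14, 5.31 and 5.18 in control arrays 1 to 3. Krt42 and Krt79, the latter a keratin of the hair canal, differed by 0.08 and -0.01. The other Krt42 probe set was dim, with a mean of 4.88, and differed by -0.05.

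Set side by side, the partners Krt5 and Krt14 differed by 0.60 and 0.94, Krt8 and Krt18 by 0.69 and 0.59, Krt7 and Krt19 by 0.88 and 0.76, Krt4 and Krt13 by 0.64 and 1.09, and Krt1 and Krt10 by 0.28 and 0.09. Along chromosome 11 the genes from Krt13 through Krt15, Krt19, Krt14 and Krt16 to Krt17 are neighbours among the measured keratins. Krt17 lies between Krt16 and Krt42, whose differences were 0.15 and 0.08, so the adjacent genes did not share its size of difference. Among the 44 genes, those on chromosome 15 with differences over 0.5 were Krt7, Krt5, Krt4, Krt8 and Krt18. The members of the 44 between Krt7, Krt5, Krt4 and Krt8 differed by -0.21 to 0.28. Keratins with a lettered name, such as the type II gene Krt6a (1.36), were left out of this order.

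**Figure D3:**
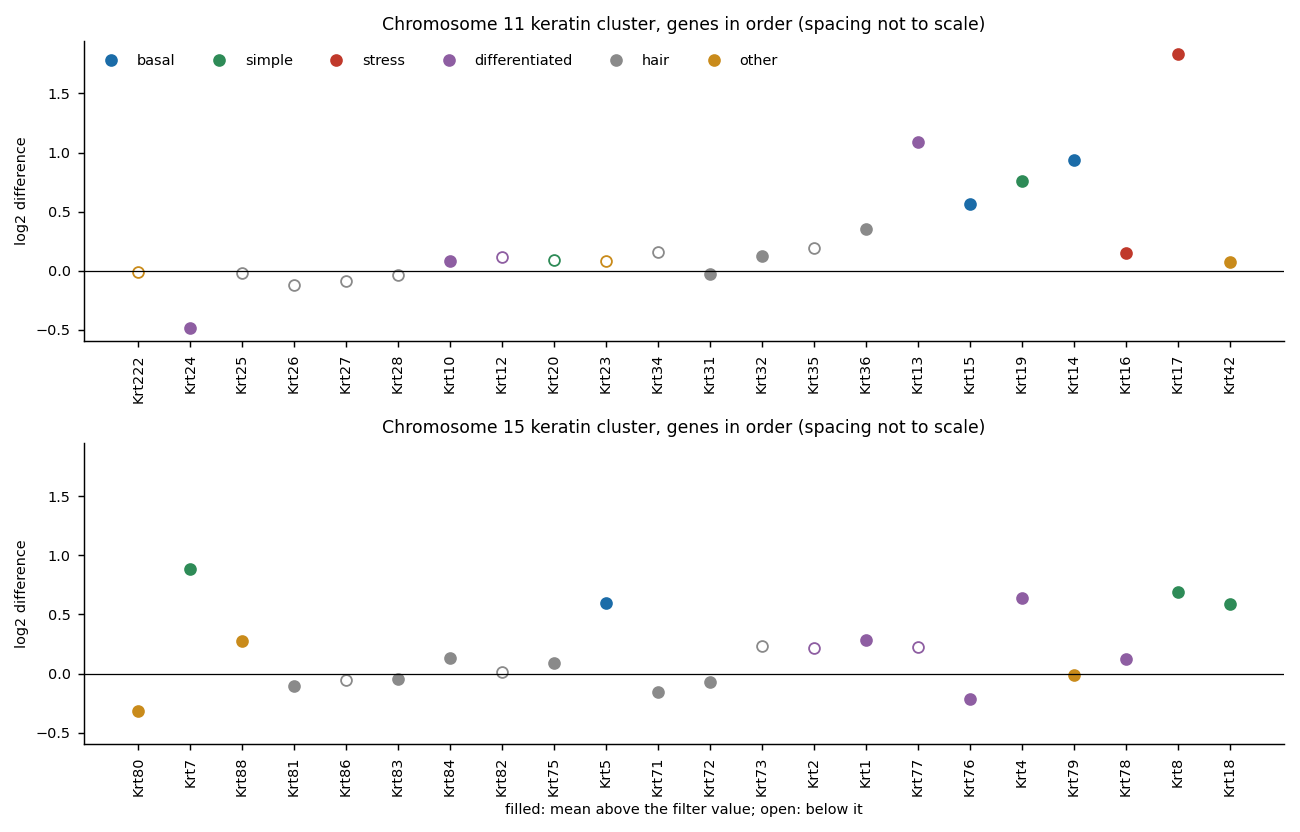
Log2 difference of mutants minus controls for the 44 keratins in gene order along the clusters on chromosome 11 (22 genes) and chromosome 15 (22 genes), coloured by class, with open points for genes under the filter value; distances are not to scale. Krt17 at 1.83 stands beside Krt16, a dim gene, at 0.15 and Krt42 at 0.08.

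Most other epithelial genes had positive differences too, and muscle genes negative ones; the part of tissue make-up in the keratin values was not tested beyond the fit relative to epithelial genes given further on. In bulk tissue fewer or more cells of a type and less or more RNA per cell cannot be told apart. Of 24 tested epithelial junction and surface genes, 22 had a positive difference and 0 passed in limma (11 at an unadjusted p under 0.05), with a median of 0.60; the adhesion gene Epcam lay between 10.62 and 11.99 on the 6 arrays. So a material labelled tongue mesenchyme held epithelial RNA on all arrays. The mean of these genes, relative to the controls, was 1.00, 0.36 and 0.19 in the 3 mutants in order of array number, and 0.15, -0.11 and -0.04 in the 3 controls. The simple keratins followed this order, with means of 1.42, 0.48 and 0.29 in the mutants, and the basal keratins gave 0.97, 0.79 and 0.33. Of all 13645 tested genes, 7288 had a positive and 6357 a negative difference. In limma 16.9% of them had an unadjusted p under 0.05, and 1.32% were called higher. All 12 muscle markers were negative (median -0.58, 0 passed in limma, 6 at an unadjusted p under 0.05). With the replicate block Myl1, Tnnc2 and Tnnt3 of this list passed (adjusted p = 0.0386, 0.0259 and 0.0271), as did Fn1 (-1.11, 0.0125) of the mesenchyme list and Esrp1 (0.71, 0.0302) of the epithelial list. Of 12 mesenchyme markers 8 were negative (median -0.21), while Lum rose by 0.77 (adjusted p = 0.0152) and Dcn by 0.65 (0.0238), both genes of matrix proteoglycans. The median was -0.11 over 10 markers of blood, vessels and macrophages, where C1qa, a macrophage complement gene, rose by 1.05 (0.0152). It was 0.28 over 6 nerve and Schwann markers, where Stmn2, a neuronal tubulin regulator gene, rose by 1.07 (0.0272), and -0.03 over 5 salivary and taste markers, with no call.

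**Figure D4:**
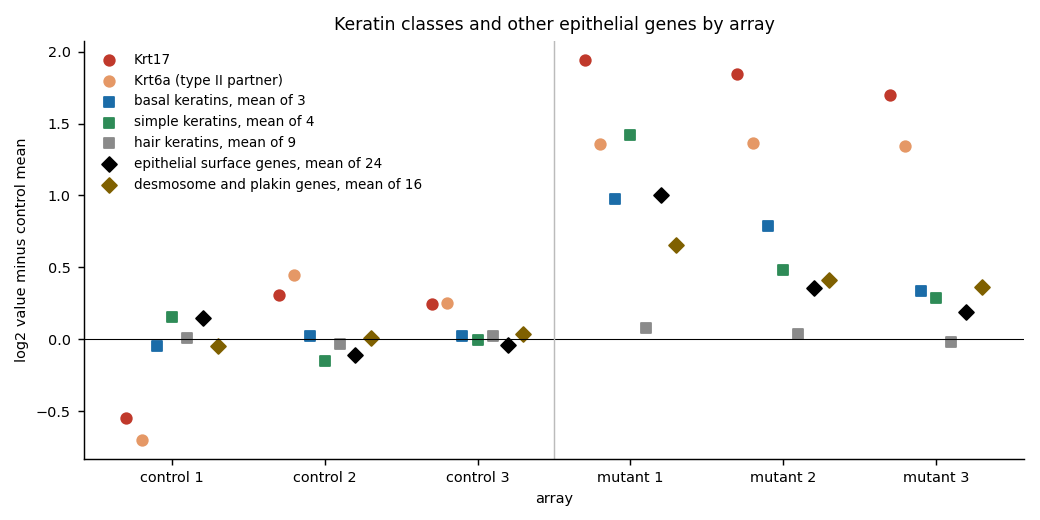
Log2 value minus the control mean on each array (horizontal axis) for Krt17, Krt6a, the means of 3 basal, 4 simple and 9 hair keratins, and the means of 24 epithelial and 16 desmosome and plakin genes. The epithelial and simple keratin means are highest on mutant array 1 (1.00 and 1.42) and lowest of the mutants on array 3 (0.19 and 0.29), whereas the mutant log2 values of Krt17 are 8.80 to 9.04.

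To set the keratins against the epithelium as a whole, the mean of the 24 epithelial genes was subtracted from every array and all genes were fitted again. Krt17 remained higher in the mutants, by 1.31 (standard error 0.32, 95% confidence interval 0.65 to 1.97, limma adjusted p = 0.0480). It was the 1 keratin called of the 29 in this fit, where 1.02% of all genes were called in either direction and 0.0879% upwards. Krt24 had the lowest relative difference, -0.997 (adjusted p = 0.127). With the replicate block 28.7% of all genes were called. Beside Krt17, 5 keratins were called lower: Krt24 (adjusted p = 0.00177), Krt80 (0.0105), Krt76 (0.0241), Krt71 (0.0341) and Krt81 (0.0465). The subtracted genes had a higher mean in the mutants, and relative to them the median over all tested genes was -0.50. Without subtraction these 5 differed by -0.48, -0.32, -0.21, -0.16 and -0.11, and none was called. Without control array 1 the Krt17 difference was 0.96 and its call was lost (adjusted p = 0.192). With the means of other genes subtracted, Krt17 differed by 1.25 against Cdh1 and Epcam (adjusted p = 0.00850), by 1.35 against 16 desmosome and plakin genes (0.0120) and by 1.13 against Krt5, Krt14 and Krt15 (0.000279). In these fits 4.71%, 66.9% and 77.9% of all genes were called. All 29 keratins had the same standard error against Cdh1 and Epcam (0.33), against the basal keratins (0.26) and with the replicate block (0.25). The same held without mutant array 2 (0.37), control array 1 (0.39), control array 2 (0.40) or control array 3 (0.40). The p-values of those fits thus rest on a spread pooled over genes and not on that of each gene. Relative to the 24 genes, the basal keratins differed by 0.05 to 0.42 and the simple keratins by 0.07 to 0.36, none with an adjusted p under 0.220. Their confidence intervals reached from -0.54 to 0.99 and from -0.48 to 0.93, so neither a smaller nor a larger change than these 24 genes was resolved. Against the desmosome and plakin genes Krt14 was called higher (0.46, limma adjusted p = 0.0340), in the fit that called 66.9% of all genes. Krt5, Krt15 and the simple keratins were not called there.

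The genes that anchor and regulate keratins gave further values. Of 16 tested desmosome and plakin genes, which tie keratin filaments to junctions, 6 were higher and 0 lower by the same test, where 1.32% of all genes were higher. The median was 0.65, with 13 positive and 3 negative. Dsp, the plakin that binds keratin filaments at desmosomes, rose by 0.56 (standard error 0.08, adjusted p = 0.0249). Col17a1, encoding the hemidesmosome collagen of basal cells, rose by 0.94 (0.0249), and Eppk1, encoding the keratin-binding plakin epiplakin, by 0.71 (0.0238). The others were Dsg2 (0.91), Pkp1 (0.78) and Ppl (0.67). With the mean of probe sets Dsp differed by 0.35 (adjusted p = 0.151) and Dsg2 by 0.57 (0.146), and with the replicate block the adjusted p of Pkp1 was 0.0556. The negative members were Pkp2, a desmosome plaque gene, with every mutant below every control (-0.61, adjusted p = 0.142), and the plakin genes Dst (-0.62, 0.379) and Plec (-0.30, 0.599). Relative to the 24 epithelial genes Pkp2 was called lower (-1.12, adjusted p = 0.0462). Of 19 epithelial transcription factors 2 were higher: Barx2 rose by 0.75 (0.0280) and Klf4, a factor of epithelial differentiation, by 0.42 (0.0476; 0.0779 with the replicate block). The median of the 19 was 0.38, with 15 positive and 4 negative. Every mutant lay below every control for Tfap2b (-0.92, adjusted p = 0.162) and Gata3 (-0.79, 0.201) of this list, and neither passed. Trp63, the master regulator of stratified epithelium and of Krt5 and Krt14, differed by 0.57 (adjusted p = 0.108), with all mutants above all controls. Of 13 cornified envelope genes none passed in limma, with a median of 0.10. An unadjusted limma p under 0.05 was reached by 2 of the 13, against 16.9% of all tested genes. Sbsn differed by 0.55 (adjusted p = 0.156) and Krtdap by 0.68 (0.354), with control array 1 the lowest of the Krtdap values at 6.79. Of 15 other intermediate filament genes none passed, with a median of 0.00. An unadjusted p under 0.05 was reached by 4 of the 15, beside the same 16.9% of all genes. The neurofilament genes Nefl and Nefm differed by 1.27 and 1.32 (limma adjusted p = 0.0599 and 0.0674) and Des, the filament of muscle, by -0.69 (0.155). With the replicate block the adjusted p was 0.0317 for Nefl and 0.0438 for Des.

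The 12 calls among the named genes of these lists were those of the 6 desmosome and plakin genes, Barx2, Klf4, Lum, Dcn, C1qa and Stmn2. All 12 were lost without control array 2 and all 12 when control array 3 was left out, 10 without mutant array 2 (all but Col17a1 and Lum) and 10 without control array 1 (all but Eppk1 and C1qa). Xist, which silences an X chromosome in female cells, lay between 11.74 and 13.17 on mutant arrays 1 and 3 and control array 1 and between 6.14 and 6.43 on the other arrays. With its level as a covariate 11 of the 12 calls were lost, all but that of Col17a1, while Krt17 kept its call (1.99, adjusted p = 0.0211). With the mean of probe sets Dcn differed by 0.41 (0.0589) and Stmn2 by 0.92 (0.0707).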

How the data were processed

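RNA of 6 embryonic tongues was labelled as cRNA and hybridised to Affymetrix arrays, per the labels' protocols. The deposited table holds log2 values that the authors made with RMA (background correction, quantile normalization, probe summary), as the submitters' processing notes name it, with no version; deposited values lay between 2.53 and 14.9. Arrays have no read depth, so their number limits the precision (median standard error 0.117). Of 45101 probe sets, 34945 have 1 gene symbol, 932 several, 9160 none listed and 64 are controls. All 44 keratin Entrez identifiers matched the RefSeq table of GRCm38.p6, with 0 symbols changed. Of the 29 tested keratins 4 (Krt4, Krt14, Krt42, Krt76) use probe sets whose suffix marks probes shared with similar transcripts.

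The comparison of genotypes used R 4.3.3 and its package limma 3.58.1 (lmFit, eBayes, 2-sided, Benjamini-Hochberg over 13645 genes, threshold 0.05), tested on simulated data first; figures used matplotlib 3.10.9. The members and lists were chosen with earlier results of these data known, so no list is independent evidence. Text names every tested keratin, and the called genes or some of the 4 lowest p of each list. The alternatives were other filters, probe set rules, normalizations, variance models, array weights, the Xist level as a covariate, a threshold of 0.1, each array left out, and other reference genes; the reference of basal keratins and the desmosome reference without mutant array 1 were added after seeing the data. The labels do not say whether title numbers pair the arrays, and the main fit used no such block. Deviations of same-numbered arrays correlated at 0.309, 0.105 and 0.206. Those of mutant array 2 with control array 3 correlated at 0.196, and those of mutant array 3 with control array 2 at 0.147. Pairing by number was thus not settled. The fit with title number as a replicate block is given where it changes a call.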

Additional observations from a re-analysis of the deposited data

Results flagged for a closer look

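A probe set annotated to both Krt17 and Krt14, and so used for neither gene, was higher in all 3 mutants than in all 3 controls, by 0.179 on the log2 scale, from a control mean of 5.11 to a mutant mean of 5.29. All mutant arrays lay above all control arrays in 13.6% of the tested genes. Groups of 3 arrays are too small to test for a single array that stands apart.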

How the results depend on the processing

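The Krt17 difference stayed positive in all 17 alternative fits (0.93 to 1.99) and lost its call in 3 of them, each with 1 array left out; the cause was not tested, beyond 1 array fewer. Of the 29 tested keratins 25 kept their side of the threshold throughout, and Krt14, Krt15 and Krt5 gained a call in some fits. The signs of Krt10, Krt31, Krt42, Krt79 and Krt83, all uncalled, turned in at least 1 fit. Against 1 keratin and 292 genes called, the counts were 2 and 326 with the mean of probe sets, 2 and 297 with trend and robust fitting, 3 and 1034 with array quality weights, 2 and 490 with the replicate block, 1 and 111 with the Xist level as a covariate, 1 and 151 with the lowest 50% of genes left out, 3 and 549 at an adjusted p under 0.1, and 0 to 4 and 16 to 670 with each array left out in turn. The keratin median of 0.13 became 0.62 with the lowest 50% of genes left out, which removes the dim keratins, and 0.0739 to 0.208 with arrays left out. Relative to epithelial genes 1 keratin was called. The count was 2 against Cdh1 and Epcam (1 of them lower, Krt24) and 16 against desmosome and plakin genes (14 lower). Against the latter without mutant array 1 it was 17, 15 of them lower. It was 17 against basal keratins (16 lower), 6 with the replicate block (5 lower), and 0 to 4 with arrays left out. Lower here means relative to reference genes whose mean was itself higher in the mutants. Without a reference no keratin was called lower. The replicate block changed, in the fit without a reference, no call among the 29 keratins other than that of Krt14. Among the 44 genes named from lists it added 8 calls, that of the lettered Krt6a among them, and ended 2 (Klf4 and Pkp1). Of the 12 called genes among the 44 named from lists, none kept its call when control array 2 or control array 3 was left out. Signal close to background limits what the 15 keratins under the filter can show.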
